A study of Homo sapiens with 6 samples.

Results

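The effector genes of the integrated stress response described here are TRIB3, CHAC1, ASNS, SESN2, DDIT4, VLDLR, STC2, NUPR1, PPP1R15A and PPP1R15B. They were taken by symbol from a table of 58735 genes, as targets of the transcription factors ATF4 and CHOP that are not themselves bZIP factors. All 10 were found, and all 10 passed the filter on low counts that left 17337 genes to test. The cells were T47D, an established human breast cancer line of luminal type. The 3 libraries titled CQ came from cells under a treatment that the design text does not name, and the 3 libraries titled CK from control cells. Fine airborne particulate matter (PM2.5) is named in the series title and in an extraction protocol worded alike for both groups, which sets extraction at 48 h. PM2.5 as the CQ treatment is therefore an inference, and CQ cells are called exposed in that sense. Neither the dose nor the vehicle is given in the sources used here.

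In the integrated stress response, any of a set of kinases phosphorylates the translation factor eIF2, which lowers general protein synthesis while favouring translation of ATF4. ATF4 and the factor it induces, CHOP (gene DDIT3), switch on genes for amino acid supply, for feedback on growth signalling and for removal of the phosphate from eIF2. The genes described here are among those outputs, and several, DDIT4, VLDLR and STC2 among them, are also known to be induced by low oxygen.

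Total counts ran from 30970218 to 36878525 over the 6 libraries. Levels are given in CPM (reads of a gene relative to the library total, after TMM scaling of the totals). Over 8 genes, luminal markers summed to 7749 to 9767 CPM in CQ and 18830 to 20750 CPM in CK libraries. Most of that sum was KRT8, KRT18 and KRT19, whereas ESR1 averaged 67.1 CPM in CQ and 166.5 CPM in CK libraries. Of the 8 genes, 6 fell in CQ, where 22.1% of all tested genes passed as lower. Stromal, immune and endothelial markers summed to 72.26 to 75.17 CPM in CQ and 61.63 to 69.94 CPM in CK libraries, most of it COL1A1. CD68 and PECAM1 were at 0 in 4 and 5 of the 6 libraries. The other immune and endothelial markers, PTPRC and VWF, had 2 to 8 and 0 to 11 reads per library. In RNA from whole cultures, a change in the number of cells that express a gene and a change in the RNA per cell cannot be told apart.

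The promoters of CHAC1, ASNS and PPP1R15B are shown because they hold the core of the C/EBP-ATF response element, through which ATF4 binds its targets. RefSeq promoter windows (GRCh38.p14), 250 bases before to 50 after a transcript start, were found for 9 of the 10 genes, 12 windows in all since TRIB3 has 3 and ASNS 2. The core was searched as TGATGNAA on both strands, and capitals mark it below; the CHAC1 match is on the strand opposite the gene.
CHAC1, chr15:40953221-40953520, plus strand: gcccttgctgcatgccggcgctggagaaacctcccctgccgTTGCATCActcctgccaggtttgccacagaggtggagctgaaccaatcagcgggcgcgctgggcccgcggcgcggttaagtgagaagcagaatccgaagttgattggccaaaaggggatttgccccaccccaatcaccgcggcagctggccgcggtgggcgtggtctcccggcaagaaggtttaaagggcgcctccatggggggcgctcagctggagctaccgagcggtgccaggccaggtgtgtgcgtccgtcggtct
ASNS, chr7:97872359-97872658, minus strand: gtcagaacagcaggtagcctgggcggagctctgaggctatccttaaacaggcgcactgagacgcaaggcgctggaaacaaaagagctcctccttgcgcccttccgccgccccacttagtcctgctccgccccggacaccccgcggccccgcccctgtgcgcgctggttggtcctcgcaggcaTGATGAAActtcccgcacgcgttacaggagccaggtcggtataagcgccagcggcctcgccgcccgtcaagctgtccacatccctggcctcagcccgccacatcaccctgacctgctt
PPP1R15B, chr1:204411768-204412067, minus strand: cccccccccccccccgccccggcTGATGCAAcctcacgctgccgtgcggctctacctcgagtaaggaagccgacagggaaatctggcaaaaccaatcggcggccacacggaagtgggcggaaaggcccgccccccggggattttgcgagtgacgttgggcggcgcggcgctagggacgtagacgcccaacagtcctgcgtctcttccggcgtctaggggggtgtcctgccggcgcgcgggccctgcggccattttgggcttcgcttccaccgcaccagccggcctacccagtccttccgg

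The core thus stood in the windows of 3 of 9 genes, against 4.46% of the 27305 genes with a window. The genes were taken as targets of ATF4 and CHOP, so this difference in share is not independent evidence. The first base of the core lay at -209 from the start of CHAC1, -68 from that of ASNS and -227 from that of PPP1R15B. The ASNS match, TGATGAAA, lies at chr7:97872469-97872476, in the stretch known as the nutrient-sensing response element of that gene. CHAC1 and PPP1R15B carried the form TGATGCAA, found in 1.08% of all genes with a window. The ER stress element, in which CCAAT and CCACG are 9 bases apart, stood in none of the 12 windows of these 9 genes and in 0.0916% of all genes. In the other windows the absence of these letters says nothing about ATF4 binding elsewhere. All 3 genes with a core rose in CQ cells, as did TRIB3, SESN2 and PPP1R15A, whose windows held none. The TRIB3 windows begin at position 381045 or beyond, downstream of the start of its principal GENCODE transcript at 380617. The STC2 window, 173328365 to 173328664 on the minus strand, likewise lies downstream of the principal start at 173329503. The bases around the principal starts of TRIB3 and STC2 were therefore not searched.

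**Figure D1:**
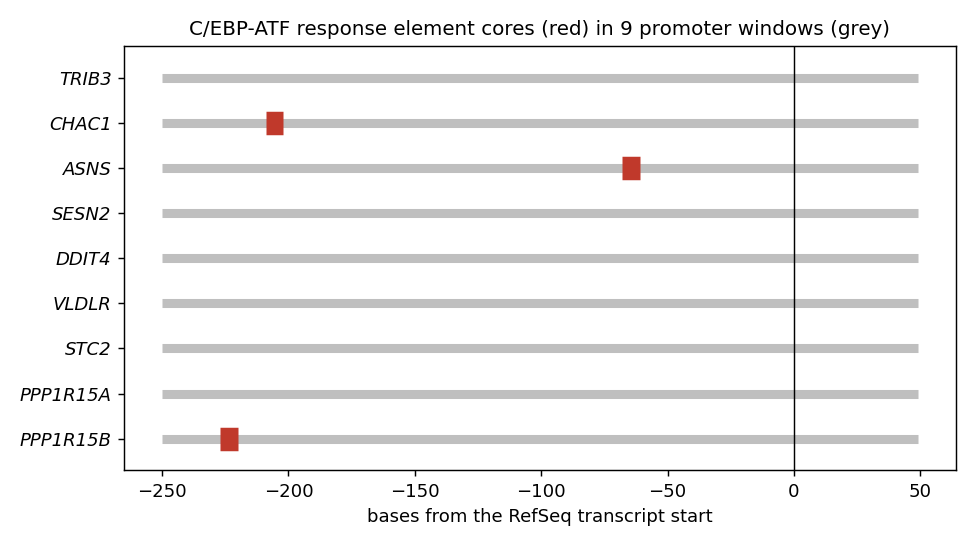
Position of the C/EBP-ATF core (red) in the promoter windows (grey) of 9 effector genes, in bases from the RefSeq transcript start; 1 window is drawn for each gene. Only CHAC1, ASNS and PPP1R15B show a core, at -209, -68 and -227.

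Exposed cells had more RNA of 7 of the 10 effector genes and less of 1. TRIB3, ASNS and NUPR1 rose most, 4.59-fold, 4.27-fold and 3.47-fold, followed by CHAC1 at 2.90-fold, PPP1R15A at 2.49-fold, SESN2 at 2.29-fold and PPP1R15B at 1.60-fold. STC2 fell, and DDIT4 and VLDLR did not pass the test. The question put to the data was whether each gene differed between CQ and CK libraries by more than the spread of the libraries, with the quasi-likelihood F test of edgeR, p-values adjusted by Benjamini and Hochberg's method over all 17337 genes and a threshold of 0.05. Over all of those genes 21.8% passed as higher and 22.1% as lower, 43.9% in all. The median log2 fold change was 1.26 over the 10 genes and -0.0213 over all genes tested. Against a test for more than a 1.5-fold change, 6 of the 10 passed as higher, where 4.12% of all genes did; PPP1R15B was the one that no longer did. None passed as lower, where 4.52% of all genes did. The same 6 genes had a log2 fold change of at least 1 and passed the first test, as 3.66% of all genes did. Every CQ library lay above every CK library for 7 of the 10 genes (25.5% of all genes) and below for 1 (26.5% of all genes).

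**Figure D2:**
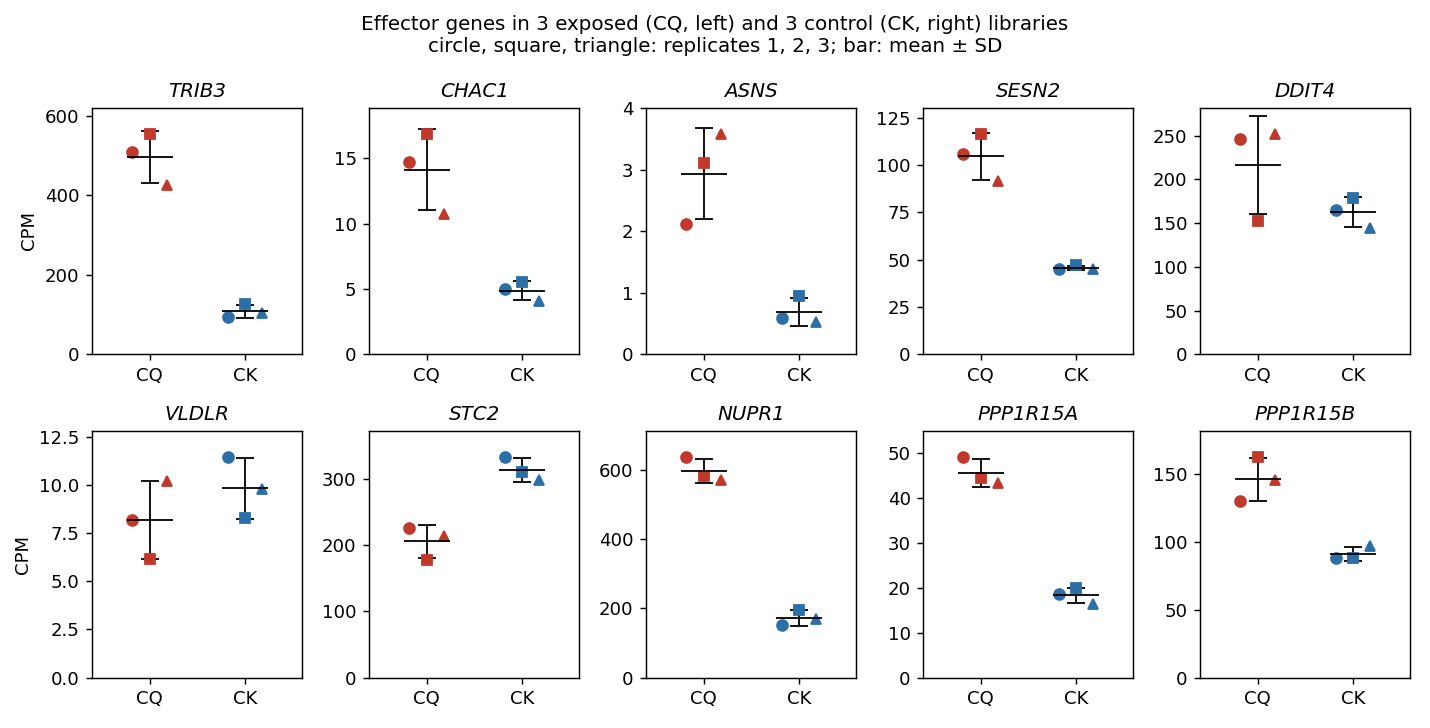
CPM of each effector gene in the 3 CQ libraries (red, left) and the 3 CK libraries (blue, right), with the mean and SD of each group (n = 3). In 7 panels every CQ library lies above every CK library, in STC2 every CQ library lies below, and in DDIT4 and VLDLR the groups overlap.

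TRIB3 encodes a pseudokinase that binds AKT and damps the activity of ATF4 and CHOP, a feedback arm of the pathway. Its level was 508.8, 554.6 and 425.7 CPM in CQ replicates 1 to 3, against 94.8, 125.5 and 104.0 CPM in CK replicates 1 to 3. The lowest CQ library was thus more than 3 times the highest CK library. The log2 fold change was 2.20 ± 0.10 (SE; edgeR adjusted p = 4.3e-13), and 0.444% of tested genes had a larger one. The gene lies on chromosome 20, 362835 to 397559, plus strand (GRCh38, as are all positions here).

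Its paralog TRIB1, an adaptor for protein degradation, rose as well, by 0.59 ± 0.12 on the log2 scale (SE; edgeR adjusted p = 1.4e-04), with 15.1 ± 1.79 CPM in CQ and 9.99 ± 0.227 CPM in CK libraries (SD, n = 3). TRIB2 had too few counts to be tested. The ubiquitin ligase COP1, which binds TRIB proteins, fell by 0.31 on the log2 scale (edgeR adjusted p = 0.011). That call ended without CQ replicate 3, CK replicate 1 or CK replicate 3 (adjusted p = 0.126, 0.0572 and 0.0692). AKT1 fell by 0.41 ± 0.07 (SE), whereas AKT2 was at 0.17 ± 0.07 and did not pass with all libraries, though it did without CK replicate 2 (adjusted p = 0.0128).

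NUPR1 encodes a small stress-induced protein of the nucleus. It had 636.1, 582.0 and 572.0 CPM in CQ replicates 1 to 3, against 150.7, 196.5 and 169.4 CPM in CK replicates 1 to 3. It had the smallest spread of the 10 genes among CQ libraries, a coefficient of variation of 5.77%, and the smallest adjusted p, 4.6e-17 in edgeR's test. The log2 fold change was 1.79 ± 0.09 (SE). NUPR1 lies on chromosome 16, 28532708 to 28539174, minus strand, and its paralog NUPR2 had no count in any library.

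CHAC1 encodes an enzyme that breaks down glutathione. It had 501, 522 and 388 reads in CQ replicates 1 to 3 and 186, 191 and 149 reads in CK replicates 1 to 3. In CPM these were 14.8, 16.9 and 10.8 in CQ and 4.98, 5.50 and 4.09 in CK libraries, with no overlap. Its log2 fold change was 1.54 ± 0.15 (SE; edgeR adjusted p = 9.3e-10). CHAC2, which encodes the second enzyme of this kind in human cells, went the other way: it fell by 1.36 ± 0.23 on the log2 scale (SE; edgeR adjusted p = 1.5e-05), with 1.48 ± 0.462 CPM in CQ and 3.80 ± 0.419 CPM in CK libraries (SD, n = 3). GGCT, listed among the partners of the effector genes, was at -0.10 ± 0.09 (log2, SE) and did not pass. CHAC1 lies on chromosome 15, 40952962 to 40956519, plus strand.

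ASNS, which makes asparagine from aspartate, gave the fewest reads of all: 72, 96 and 129 in CQ replicates 1 to 3, against 22, 33 and 19 in CK replicates 1 to 3. These correspond to 2.12, 3.10 and 3.58 CPM in CQ and 0.590, 0.9502 and 0.521 CPM in CK libraries. The groups did not overlap, and the log2 fold change was 2.09 ± 0.30 (SE; edgeR adjusted p = 6.9e-07), the widest error of the 10 genes. A readthrough gene on the same strand, AC079781.5, shares 84.3% of the bases of the principal ASNS transcript in GENCODE 29 and was itself given 0 to 6 reads per library. The sources used here do not say how the authors assigned reads that fall in both genes, so the low level of ASNS may not be that of its RNA; whether the fold change is touched was not tested. ASNS lies on chromosome 7, 97852118 to 97872542, minus strand. Its paralog ASNSD1 fell by 0.34 on the log2 scale (edgeR adjusted p = 0.0057), a call that ended without CQ replicate 1 (adjusted p = 0.0643).

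SESN2 and DDIT4 both encode inhibitors of the growth kinase complex mTORC1, SESN2 as a leucine sensor that binds the GATOR2 complex and DDIT4 by way of the TSC1 and TSC2 proteins. SESN2 had 105.8, 116.4 and 91.6 CPM in CQ replicates 1 to 3, against 44.8, 46.99 and 44.9 CPM in CK replicates 1 to 3. Its CK libraries lay within a coefficient of variation of 2.68%, the tightest of the 10 genes in that group. The log2 fold change was 1.20 ± 0.09 (SE; edgeR adjusted p = 4.3e-13). SESN2 lies on chromosome 1, 28259527 to 28282491, plus strand. Its paralog SESN1, a p53 target, was at -0.37 ± 0.18 (log2, SE) without passing, although it passed as lower without CQ replicate 3 (adjusted p = 0.0221), and SESN3 was not tested for want of counts.

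DDIT4 had 246.4, 151.9 and 252.1 CPM in CQ replicates 1 to 3, against 165.3, 179.0 and 144.7 CPM in CK replicates 1 to 3. CQ replicate 2 fell among the CK libraries while the other two CQ libraries lay above them. With all libraries the log2 fold change was 0.41 ± 0.24 (SE; edgeR adjusted p = 0.236). Without CQ replicate 2 it was 0.62 ± 0.09 and passed (adjusted p = 1.9e-07), and limma-voom on all libraries also called it (0.38, adjusted p = 0.0169). DDIT4 lies on chromosome 10, 72273920 to 72276036, plus strand, and the antisense gene DDIT4-AS1, which overlaps it, had 0 reads in every library. Its partner TSC1 rose by 0.86 ± 0.08 and TSC2 fell by 0.26 ± 0.07 on the log2 scale (SE; edgeR adjusted p = 2.8e-10 and 0.0045), the TSC2 call ending without CQ replicate 3 (adjusted p = 0.0617). Of the 5 GATOR2 genes, WDR24 at 0.40 and SEC13 at 0.29 passed as higher, the second of them not without CQ replicate 1 (adjusted p = 0.0634), and MIOS, WDR59 and SEH1L, at 0.09, 0.04 and -0.11, did not pass.

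VLDLR, a receptor for lipoproteins and for reelin, was rare and variable. It had 8.19, 6.17 and 10.2 CPM in CQ replicates 1 to 3, against 11.4, 8.26 and 9.77 CPM in CK replicates 1 to 3, and the groups overlapped. The log2 fold change was -0.26 ± 0.15 (SE; edgeR adjusted p = 0.176). Without CQ replicate 3 it was -0.43 and passed (adjusted p = 0.0355), and without CQ replicate 2 it was -0.09 (adjusted p = 0.671). VLDLR lies on chromosome 9, 2621834 to 2660053, plus strand. LRP8, which encodes the other reelin receptor, rose by 1.21 ± 0.10 on the log2 scale (SE; edgeR adjusted p = 3.2e-11), with 27.0 ± 1.07 CPM in CQ and 11.7 ± 0.637 CPM in CK libraries (SD, n = 3). The ligand gene RELN and the adaptor gene DAB1 had too few reads to be tested, and DAB1 had none.

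STC2, a secreted glycoprotein, was the effector gene that fell. It had 225.5, 178.2 and 214.1 CPM in CQ replicates 1 to 3, against 332.7, 310.7 and 298.1 CPM in CK replicates 1 to 3, so every CQ library lay below every CK library. The log2 fold change was -0.61 ± 0.08 (SE; edgeR adjusted p = 3.1e-07). A test for more than a 1.5-fold change did not call it (adjusted p = 0.802). Its paralog STC1 fell further, by 1.99 ± 0.23 (SE; edgeR adjusted p = 2.85e-04), with 9.07 ± 2.70 CPM in CQ and 36.2 ± 5.54 CPM in CK libraries (SD, n = 3). STC2 lies on chromosome 5, 173314713 to 173329503, minus strand.

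PPP1R15A (GADD34) and PPP1R15B (CReP) encode the subunits that direct protein phosphatase 1 to eIF2, the first known as stress-induced and the second as constitutive. PPP1R15A had 49.1, 44.4 and 43.3 CPM in CQ replicates 1 to 3, against 18.6, 19.9 and 16.4 CPM in CK replicates 1 to 3. PPP1R15B had 130.2, 162.6 and 146.1 CPM in CQ replicates 1 to 3, against 88.3, 88.5 and 97.2 CPM in CK replicates 1 to 3. Both rose in CQ libraries without overlap, PPP1R15A by 1.32 ± 0.10 and PPP1R15B by 0.68 ± 0.08 on the log2 scale (SE; edgeR adjusted p = 9.9e-13 and 3.4e-08). PPP1R15A lies on chromosome 19, 48872392 to 48876057, plus strand, and PPP1R15B on chromosome 1, 204403387 to 204411791, minus strand.

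Per kb of gene length, PPP1R15A stood at 0.637, 0.461 and 0.501 of the level of PPP1R15B in CQ replicates 1 to 3, against 0.356, 0.380 and 0.286 of it in CK replicates 1 to 3. PPP1R15B thus remained the more abundant transcript in all 6 libraries, and the ratio was higher in every CQ library than in any CK library, with a log2 difference of 0.64. An exact two-sided permutation test over the 6 libraries gave p = 0.1, the smallest it can give. Of the catalytic subunits of the phosphatase, PPP1CB was at 0.23 ± 0.08 (log2, SE) and passed with all libraries (edgeR adjusted p = 0.0241), but not without CQ replicate 2, CQ replicate 3 or CK replicate 2 (adjusted p = 0.0693, 0.0967 and 0.0827). PPP1CA and PPP1CC were at -0.10 and -0.12 and did not pass; PPP1CC passed as lower without CK replicate 2 (adjusted p = 0.0309).

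**Figure D3:**
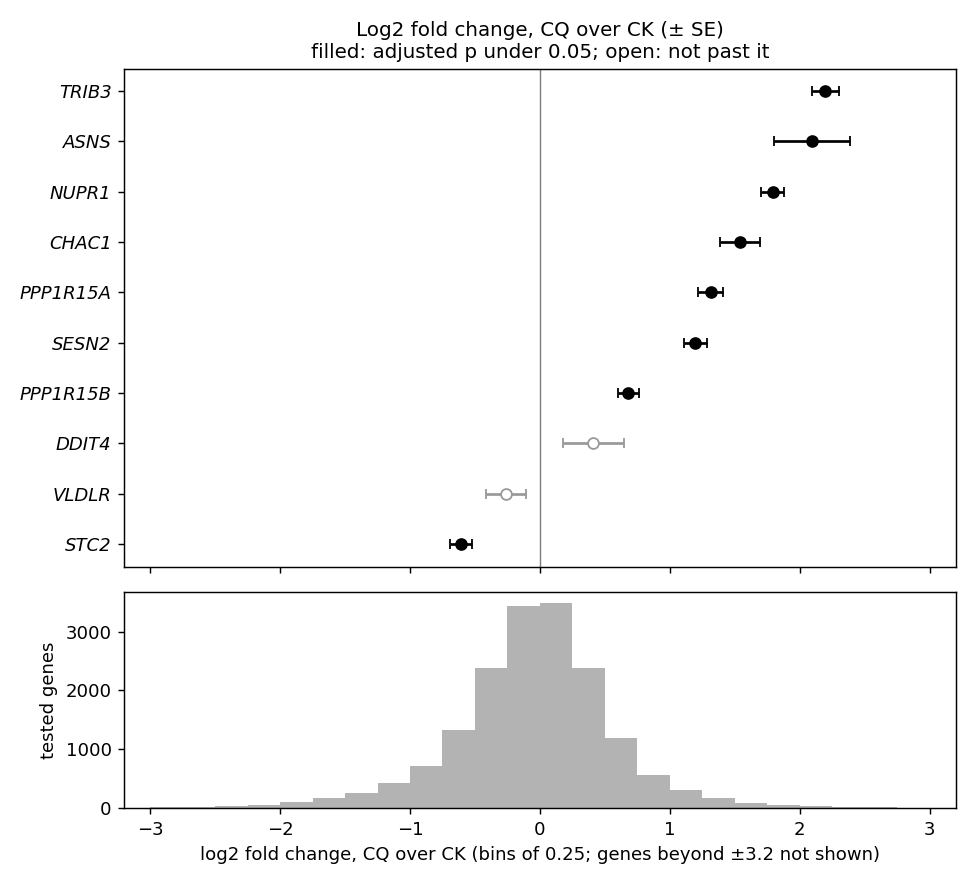
Log2 fold change, CQ over CK, of the 10 effector genes with its SE (upper panel), above the distribution of the same quantity over all tested genes (lower panel, genes per bin). TRIB3 at 2.20 and ASNS at 2.09 lie in the far right tail, and STC2 at -0.61 on the left side of the main body.

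Compared per kb of gene length, the levels spanned more than 2 orders of magnitude in each group. In CQ libraries TRIB3 led at 145 ± 19.0 CPM per kb (SD, n = 3), above DDIT4 at 105 ± 27.3 and NUPR1 at 105 ± 6.07, which overlapped each other. STC2, SESN2 and PPP1R15B followed at 33.6 ± 4.03, 30.3 ± 3.60 and 28.0 ± 3.10 CPM per kb, each overlapping the next. PPP1R15A stood at 14.7 ± 0.984, CHAC1 at 6.86 ± 1.51, VLDLR at 0.876 ± 0.214 and ASNS at 0.658 ± 0.167 CPM per kb, the last pair overlapping.

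The order differed in CK libraries. DDIT4 led at 79.2 ± 8.38 CPM per kb, before STC2 at 51.2 ± 2.86, and TRIB3 at 31.5 ± 4.59 and NUPR1 at 30.4 ± 4.06 overlapped (SD, n = 3). PPP1R15B at 17.5 ± 0.968 CPM per kb came before SESN2 at 13.2 ± 0.354, and PPP1R15A, CHAC1, VLDLR and ASNS followed in the same order as in CQ libraries, at 5.92 ± 0.570, 2.36 ± 0.347, 1.05 ± 0.169 and 0.154 ± 0.0517. With the length of the principal transcript in place of the gene length, ASNS stood at 1.24 CPM per kb in CQ and 0.292 CPM per kb in CK libraries, and in CQ libraries it then came before VLDLR.

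Libraries of one group did not rank alike across the 10 genes. Among CQ libraries, replicate 2 was the highest for TRIB3, CHAC1, SESN2 and PPP1R15B and the lowest for DDIT4, VLDLR and STC2. These are 40% and 30% of the 10 genes, near the 33.3% and 33.5% of all tested genes. Replicate 3 was the lowest for 5 of the 10, where it was the lowest for 30.6% of all tested genes. The log2 distance of replicate 2 from the CQ mean was 0.28 for CHAC1 and 0.17 for TRIB3, but -0.48 for DDIT4, -0.38 for VLDLR and -0.20 for STC2. Among CK libraries, replicate 2 was the highest for 7 of the 10 genes, where it was the highest for 37.9% of all tested genes. The coefficient of variation in CQ libraries was 25.9% for DDIT4, 25.3% for ASNS, 24.5% for VLDLR and 21.95% for CHAC1. The median was 7.88% over the 14195 tested genes that averaged 1 CPM or more. Unlike DDIT4 and VLDLR, ASNS was lowest in CQ replicate 1 and CHAC1 in CQ replicate 3.

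A list of 14 genes known to be induced by low oxygen was drawn up after the order of the libraries in DDIT4 and VLDLR, and the values of the listed genes, had been seen. All 14 were lowest in CQ replicate 2 and highest in CQ replicate 3, as DDIT4 and VLDLR were. STC2 was also lowest in CQ replicate 2 but highest in CQ replicate 1. Of all tested genes, 33.5% were lowest in CQ replicate 2 and 31.8% highest in CQ replicate 3. Among CK libraries, 10 of the 14 (71.4%) were lowest in replicate 3, as DDIT4 was, and 4 (28.6%) in replicate 2, as VLDLR was. Of all tested genes, 29.4% were lowest in CK replicate 3 and 38.4% in CK replicate 2. Because of how the list was chosen, this order is a description of these 14 genes and says nothing of other genes of that kind. VEGFA, an angiogenic factor that is also an ATF4 target, had 238.1, 178.8 and 305.1 CPM in CQ replicates 1 to 3, against 171.7, 196.1 and 125.7 CPM in CK replicates 1 to 3. ERO1A, an oxidase of the ER, had 137.6, 113.7 and 192.8 CPM in CQ replicates 1 to 3, against 160.6, 150.1 and 143.8 CPM in CK replicates 1 to 3. The carbonic anhydrase gene CA9 had 14.8, 6.82 and 19.4 CPM in CQ replicates 1 to 3, against 18.1, 20.3 and 11.8 CPM in CK replicates 1 to 3. Of the 14 genes, 1 passed as higher in CQ (SLC2A1) and 3 as lower (BNIP3, PDK1 and INSIG2), where 21.8% of all tested genes passed as higher and 22.1% as lower. With 1 library left out at a time, 0 to 3 of the 14 passed as higher and 1 to 6 as lower. The most higher calls came without CQ replicate 2 and the most lower calls without CQ replicate 3, and of the 4 genes called with all libraries PDK1 kept its call throughout. ERO1A was at -0.25 on the log2 scale and passed as lower without CQ replicate 3 (edgeR adjusted p = 0.0362). The part of these differences between libraries in the results for DDIT4, VLDLR and STC2 was not tested.

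**Figure D4:**
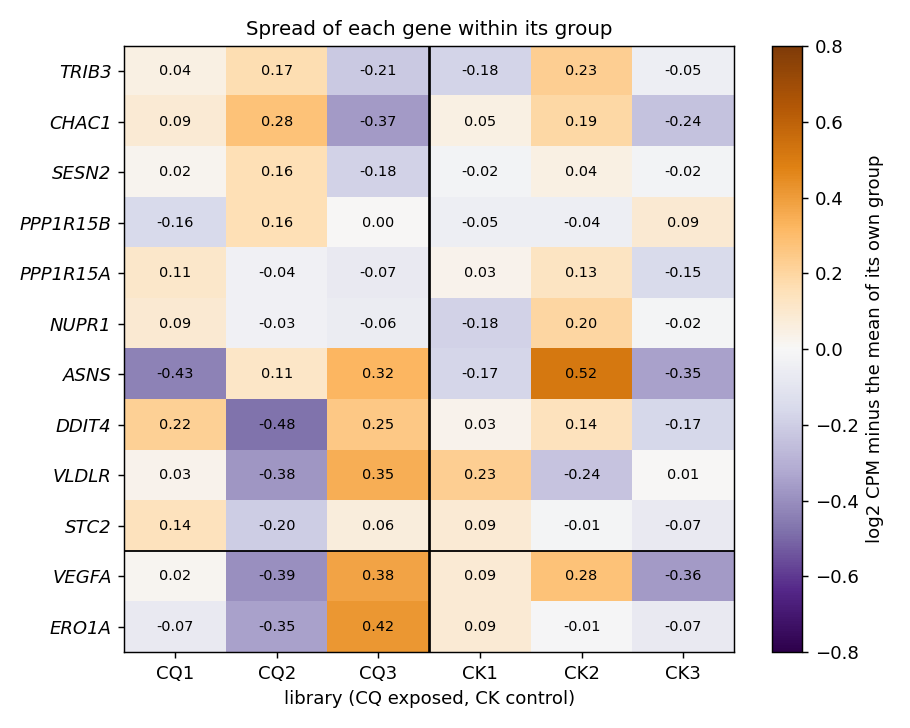
Log2 CPM of each effector gene, and of VEGFA and ERO1A, in each library minus the mean of its own group (CQ left of the line, CK right of it). In CQ replicate 2, DDIT4, VLDLR, STC2, VEGFA and ERO1A are low (-0.48 to -0.20), while TRIB3, CHAC1, SESN2 and PPP1R15B are high (0.16 to 0.28).

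The transcription factors upstream of these genes rose with 1 exception, 6 of 7 higher and 1 lower. Of all tested genes, 21.8% passed as higher and 22.1% as lower. ATF4 had 592 ± 23.3 CPM in CQ and 263 ± 24.9 CPM in CK libraries (SD, n = 3), and DDIT3 149 ± 12.8 CPM in CQ and 10.9 ± 3.27 CPM in CK libraries. ATF3, a repressor induced by ATF4, was at 1.56 on the log2 scale, and the call of JDP2, at 0.32, ended without CK replicate 1 (edgeR adjusted p = 0.0652). ATF5, another bZIP factor of the pathway, fell by 1.47 ± 0.11 (SE; edgeR adjusted p = 6.2e-13).

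Of 34 other ATF4 and CHOP targets, 28 rose and 2 fell, with a median log2 fold change of 0.71. The share that rose was 82.4%, against 21.8% of all tested genes. The stress cytokine gene GDF15, the cystine transporter gene SLC7A11 and HERPUD1, which serves degradation of ER proteins, changed most, at 4.96, 2.19 and 1.75 on the log2 scale. The genes that fell were PSPH, the last enzyme of serine synthesis, at -0.36, and ALDH18A1, the first enzyme of proline synthesis, at -0.43. The call of PSPH ended without CQ replicate 3 (edgeR adjusted p = 0.0609). Both this list and that of the factors were drawn up with results on these samples known, so their direction is not independent evidence.

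Of 14 genes for the kinases, eIF2, its exchange factor eIF2B, GCN1 and DELE1, 3 rose, 5 fell and 6 did not pass. GCN1 was among those that fell, at -0.30, a call that ended without CQ replicate 3 (edgeR adjusted p = 0.0561). DELE1 did not pass. The median log2 fold change of the 14 genes was -0.0085. The share that rose was 21.4%, against 21.8% of all tested genes, and the share called in either direction 57.1%, against 43.9%. EIF2AK2 (PKR), the kinase that senses double-stranded RNA and is itself induced by interferon, fell to 33.3 ± 3.43 CPM in CQ, against 57.6 ± 2.45 CPM in CK libraries (SD, n = 3; log2 fold change -0.79 ± 0.09, SE; edgeR adjusted p = 1.0e-08). The kinases EIF2AK1 (HRI), EIF2AK3 (PERK) and EIF2AK4 (GCN2) were at 0.07 ± 0.07, 0.26 ± 0.12 and -0.18 ± 0.08 (SE) and did not pass with all libraries; EIF2AK4 passed as lower without CK replicate 2 (adjusted p = 0.0121).

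The eIF2B subunits EIF2B2 and EIF2B5 moved apart, at 0.52 ± 0.08 and -0.51 ± 0.08 on the log2 scale (SE; edgeR adjusted p = 4.7e-06 and 2.4e-06). EIF2S2 and EIF2S3, subunits of eIF2, passed as higher at 0.34 and 0.19, but EIF2S3 passed in none of the fits that left out a library (adjusted p from 0.0516 to 0.109). EIF2S1, the subunit that is phosphorylated, was at -0.21 and kept its call only without CK replicate 2. RNA levels do not show the phosphorylation of eIF2, which was not measured.

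Of 7 tested paralogs of the effector genes, 3 rose and 3 fell, and of 16 tested partners and direct targets 5 rose and 3 fell, with AKT1, COP1 and TSC2 as those that fell. The shares called in either direction were 85.7% of the paralogs and 50% of the partners, against 43.9% of all tested genes, and 31.2% of the partners rose, against 21.8% of all. MSL1, a chromatin protein that binds NUPR1, was at 0.85 ± 0.07 on the log2 scale (SE). Leaving out CQ replicate 3 reduced the partners that fell to 1. In the list of 14 genes with the kinases and eIF2, it reduced those that fell to 3.

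**Figure D5:**
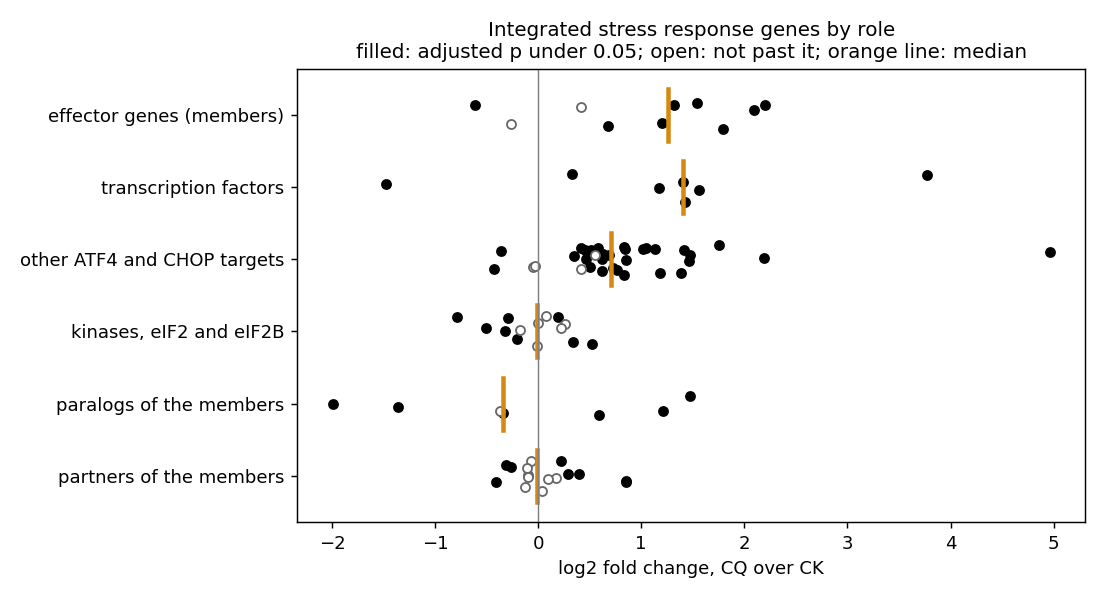
Log2 fold change, CQ over CK, of each tested gene by its role in the response; filled points passed edgeR's test at an adjusted p under 0.05 and orange lines are medians. Effector genes, transcription factors and other targets have medians of 1.26, 1.40 and 0.71. The kinases with eIF2 and eIF2B, drawn together with GCN1 and DELE1, have a median near 0.

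The genes whose log2 CPM followed that of TRIB3 most closely over the 6 libraries were SEPHS2, CLDN23 and GAD1, with Pearson's r of 0.9993, 0.9992 and 0.9992. For STC2 they were MGAT3, GTF2H5 and AC092117.1, with r of 0.9977, 0.9971 and 0.9960. These are descriptions over 6 libraries in 2 groups that share the difference between the groups: r was over 0.95 with TRIB3 for 1485 of 14194 genes.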

How the data were processed

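Libraries of T47D cells were made from TRIzol-extracted total RNA with a NEBNext Ultra kit and sequenced on a NovaSeq instrument, per the labels' protocols. The authors deposited 1 table of whole-number read counts per gene with gene lengths, on GRCh38 per the submitters' processing notes; the sources used here name no aligner, counting tool or strand setting. All 58735 gene IDs matched GENCODE 29 in position and strand. Groups and replicate numbers came from the titles. Replicates are called biological in the design text, with no word on separate cultures, so p-values measure the spread between these samples. No pair of libraries held identical values (chi-square per degree of freedom 7.11 to 14.9 within groups).

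Counts were tested with edgeR 4.0.16 in R 4.3.3: filterByExpr (minimum count 10, total 15), TMM scaling (0.948 to 1.04), a robust quasi-likelihood fit and Benjamini-Hochberg adjustment. The SE is the log2 fold change divided by the square root of F. The procedure was first tested on simulated counts.

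The genes described and all lists were chosen with earlier results of these data known. The naming rule takes all 10 effector genes; from each other list the 3 largest changes past the threshold and the genes against its majority; all tested paralogs, of which 1 is not reported here; ATF4, DDIT3, the PPP1C genes and the eIF2 kinases; and the 3 genes most like the highest and lowest effector gene. Other genes named, and those of the low-oxygen list, were chosen after their values were seen. Alternatives were other scalings, filters, DESeq2 1.42.0, limma-voom 3.58.1, a replicate block, a 1.5-fold minimum, protein-coding genes alone and leaving out each library; principal transcript lengths, and leaving out libraries for the PPP1R15 ratio and the low-oxygen genes, were added after seeing the data.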

Additional observations from a re-analysis of the deposited data

How the results depend on the processing

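TRIB3, CHAC1, ASNS, SESN2, NUPR1 and PPP1R15A kept their direction and their call under all 15 alternatives, with log2 fold changes of 2.11 to 2.32 for TRIB3, 1.40 to 1.72 for CHAC1, 1.93 to 2.39 for ASNS, 1.12 to 1.30 for SESN2, 1.71 to 1.90 for NUPR1 and 1.24 to 1.38 for PPP1R15A. PPP1R15B (0.60 to 0.76) and STC2 (-0.67 to -0.51) lost the call only in the test against a 1.5-fold change, under which 1498 of all genes passed and 0 effector genes fell. DDIT4 gained a call with limma-voom or without CQ replicate 2, and VLDLR without CQ replicate 3. Leaving out 1 library at a time gave 7 to 8 effector genes higher and 1 to 2 lower. No effector gene changed direction. The log2 change of the PPP1R15A to PPP1R15B ratio stayed between 0.51 and 0.74 when each library was left out in turn. The replicate numbers showed no pairing of the libraries in these data. Deviations of same-numbered libraries correlated at -0.14, -0.112 and 0.0231, and no library correlated best with its own number. With 3 libraries in each group, correlations this weak cannot exclude that cultures were paired. With the replicate block, 6779 genes passed, against 7610 without it, and the effector genes kept their calls. Principal transcript lengths moved levels per kb by more than 1 SD in 11 of 20 cases. With 19 to 129 reads per library, ASNS is the gene for which depth limits precision most.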
